A study of Mus musculus with 8 samples.

Results

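Genes for chromatin remodelers and histone chaperones were followed in 2-cell mouse embryos that carry or lack Dux. The members were taken by symbol alone: every gene whose symbol begins with Smarc, Chd and a digit, Arid1 to Arid5, Ino80, Baz1, Baz2, Chaf1, Asf1, Nap1l, Ruvbl or Actl6, together with Bptf, Atrx, Daxx, Hira, Supt16, Ssrp1, Npm2, Npm3 and Ctcf. This gave 58 of the 13101 genes in the table, and 56 of them reached a mean level of 0.5 FPKM (fragments scaled to transcript length and library size) and were tested. Chd2 and Chd3 were below that level, with WT means of 0.436 and 0.460 FPKM and Dux KO means of 0.394 and 0.428 FPKM. The symbols take in some genes that are not remodelers or chaperones. These are Arid3, Arid4 and Arid5 genes and Ctcf, which encode DNA-binding proteins, the long noncoding RNA Ino80dos and the pseudogene Smarca5-ps.

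Remodelers use ATP to slide, eject or exchange nucleosomes. They form the families SWI/SNF, ISWI, CHD and INO80, each built on a related motor subunit with partners that direct it. Histone chaperones carry histones that are not on DNA and hand them over during replication, transcription and repair. In the early mouse embryo they serve the exchange of sperm protamines for histones, the first rounds of DNA replication and the opening of chromatin at genome activation. The DUX protein is a transcription factor with a pair of homeodomains that is made around genome activation.

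RNA with poly(A) tails was sequenced from 4 pools of Dux KO and 4 pools of wild-type (WT) embryos, all of the C57BL/6 background. Each pool held 12 to 18 embryos collected at the 2-cell stage after timed matings. The labels give no further detail of the knockout allele and do not say whether pools came from separate parents, so the spread behind each p-value may be technical. The Dux transcript was not analysed here. Recovered gene reads numbered 12343369 to 14548526 per pool, and every pair of pools of a group differed beyond sampling noise (chi-square per degree of freedom 13.8 to 116.7). The oocyte and 2-cell markers that were listed for this stage had rows for 19 of 20 genes. Of these, Dppa3, Zp3 and Padi6 were called lower in Dux KO and Zbed3, Btg4 and Bmp15 higher, and Dppa3 was at 4576 to 5665 FPKM in WT, against 3158 to 3747 FPKM in Dux KO. The rest did not pass. Among them were Zscan4d, Zscan4c, Zfp352, Tcstv3 and Usp17lb (limma adjusted p 0.241 to 0.945).

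Markers of other cells that a pool could carry were measured for the same pools. Of 14 cumulus and granulosa cell markers 6 had values, and they summed to 43.2 to 55.1 FPKM in WT, against 42.9 to 63.9 FPKM in Dux KO. Most of each sum was Amhr2 and Nr5a2, while Foxl2, Fshr, Amh, Inhba, Has2, Ptgs2, Pgr and Ptx3 had no row. Of 10 oviduct epithelium markers 5 had values (137 to 157 and 112 to 161 FPKM in sum, most of it Epcam), of 10 blood markers 2 (2.58 to 7.84 and 3.91 to 7.71 FPKM), and of 10 sperm markers only Ldhc (46.1 to 78.4 and 22.8 to 44.3 FPKM). Of these other-cell markers, Cyp19a1 and Cd24a were called higher in Dux KO, and Epcam and Ldhc lower. Their part in the results below was not tested. In bulk RNA, fewer cells of a type and less RNA per cell cannot be told apart.

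Of the 56 tested members, 5 were higher in Dux KO (Arid5b, Smarca2, Arid1b, Chaf1b and Arid3a) and 6 were lower (Smarcad1, Actl6a, Smarcc1, Supt16, Ruvbl1 and Nap1l4), while 45 did not pass (limma on log2(FPKM + 1), Benjamini-Hochberg adjusted p under 0.05 over all 12434 tested genes). The called share was 8.93% higher and 10.7% lower, or 19.6% in all. Among all tested genes it was 15.5% higher and 18.1% lower, or 33.6% in all. The median log2 fold change was -0.17 for the members and -0.02 for all tested genes. Values of the groups did not overlap for 17 members, 6 with Dux KO above WT and 11 with Dux KO below, beside 33.1% of all tested genes (15% above and 18.1% below). On log2(FPKM + 1), a called change of at least 2-fold was seen for Arid5b alone, a higher one, beside 3.76% higher and 3.28% lower of all tested genes. Smarcad1 and Actl6a came next, with Dux KO means of 0.498 and 0.499 times the WT means in FPKM. For the low genes Arid1b and Arid3a these ratios were 1.97 and 1.96. Their edgeR log2 fold changes on recovered reads were 1.02 and 1.01 (edgeR adjusted p = 0.0057 and 0.0429). Before adjustment, a limma p under 0.05 was reached by 6 members higher and 15 lower of 56, beside 21.7% and 24.8% of all tested genes.

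The counts moved with single pools, and so did the shares of all tested genes. Without WT replicate 4 there were 3 higher and 3 lower members, beside 9.48% and 10.8% of all genes. Without Dux KO replicate 1 they were again 3 and 3, beside 10.1% and 11.5%. Without Dux KO replicate 2 they were 3 higher and 5 lower (10.7% and 12.9% of all genes), and without Dux KO replicate 4 they were 5 and 10 (15.4% and 17.2%). Without Dux KO replicates 1 and 2 together 1 member was higher, Arid5b, and 0 were lower, beside 2.86% and 3.62% of all genes. DESeq2 on recovered reads gave 6 higher and 10 lower members (19.7% and 19.8% of all genes). On the same reads edgeR gave 5 and 6, the same 11 members as limma (17.4% and 17.5%), and the p-values in the authors' deposited table gave 5 higher and 10 lower (16.2% and 18.6%). When only genes averaging 5 FPKM or more were kept, 3 of 33 members were higher and 7 lower, beside 16% and 29.1% of the genes kept, and the medians were -0.28 for the members and -0.18 for all genes kept.

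**Figure D1:**
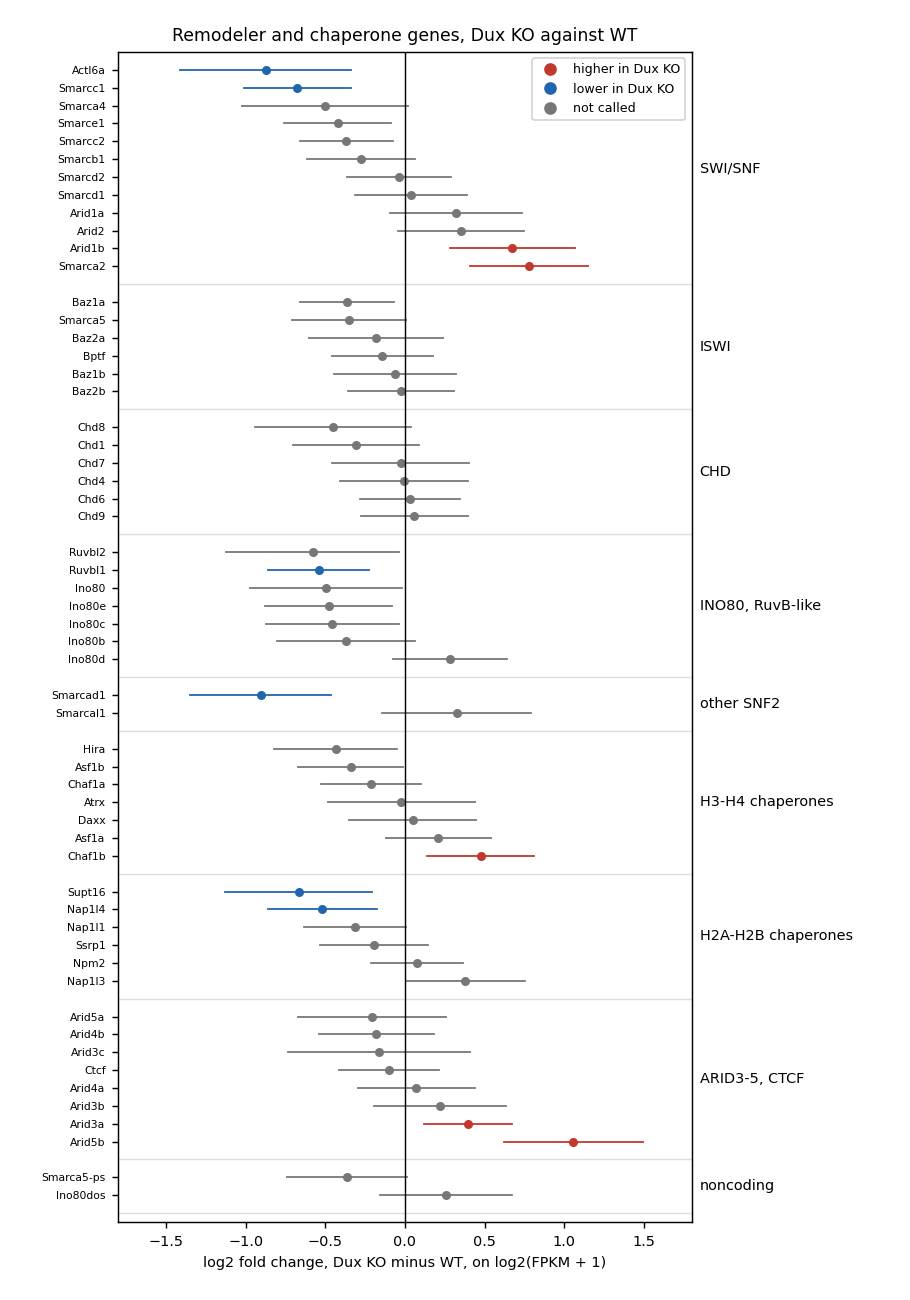
Log2 fold change (Dux KO minus WT, x axis, on log2(FPKM + 1)) of the 56 tested members, grouped by role, with 95% intervals from limma over 4 and 4 pools. Red points are the 5 members called higher, blue points the 6 called lower and grey points the 45 not called, and all 6 ISWI members lie left of 0 with none called.

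SWI/SNF complexes, in which a motor subunit (Smarca4 or Smarca2) works with core and DNA-binding partners, held calls in both directions. Of 12 tested members, 2 rose, 2 fell and 8 did not pass. The called shares were 16.7% higher and 16.7% lower, beside 15.5% and 18.1% of all tested genes. Smarca2, the BRM motor, stood at 31.7, 27.2, 23.3 and 21.3 FPKM in WT replicates 1 to 4, against 39.0, 53.3, 39.4 and 48.3 FPKM in Dux KO replicates 1 to 4. Every Dux KO pool was above every WT pool. The mean rose from 25.8 ± 4.57 to 45.0 ± 7.0 FPKM (SD, n = 4), a change of 0.78 on the log2 scale (95% interval 0.41 to 1.15, limma adjusted p = 0.00789).

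Smarca4, the BRG1 motor and a maternal-effect gene, was at 8.70, 8.13, 13.3 and 14.6 FPKM in WT, against 5.78, 6.13, 7.25 and 11.3 FPKM in Dux KO. The groups overlapped through Dux KO replicate 4, and the difference did not pass (log2 fold change -0.50, 95% interval -1.02 to 0.02, limma adjusted p = 0.12). Without Dux KO replicate 4 it did (log2 fold change -0.69, limma adjusted p = 0.0385). In all 8 pools Smarca2 was the more abundant of the 2 motors.

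Arid1b, one of the alternative ARID subunits that bind DNA for the canonical complex, was low in both groups. Its level was 1.57, 2.17, 1.46 and 1.30 FPKM in WT, against 2.96, 3.52, 2.28 and 4.07 FPKM in Dux KO, without overlap though WT replicate 2 and Dux KO replicate 3 were close. It rose by 0.67 on the log2 scale (limma adjusted p = 0.0169). Its more abundant counterpart Arid1a did not pass (8.54 ± 0.868 and 11.2 ± 3.13 FPKM, SD, n = 4). Arid2, the ARID subunit of the PBAF form, was at 10.4 to 11.2 FPKM in WT, against 14.8, 11.8, 11.2 and 19.9 FPKM in Dux KO. Its groups did not overlap, but the gap was narrow in Dux KO replicate 3 and the difference did not pass (limma adjusted p = 0.149). DESeq2 called it higher (log2 fold change 0.45, adjusted p = 0.0498).

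Actl6a, an actin-related subunit (BAF53A) shared by SWI/SNF, INO80 and TIP60 complexes, was at 20.1, 20.5, 45.2 and 37.6 FPKM in WT, against 15.8, 14.3, 14.8 and 16.7 FPKM in Dux KO. The Dux KO pools lay close together, while WT replicates 3 and 4 stood well above WT replicates 1 and 2. It fell by 0.87 on the log2 scale (95% interval -1.41 to -0.34, limma adjusted p = 0.0207), and without WT replicate 4 the call ended (log2 fold change -0.75, limma adjusted p = 0.0618). Of its exon bases 11.6% are shared with Mrpl47 on the opposite strand, and the strand setting of the counting is not given.

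Smarcc1, the BAF155 core scaffold, was at 18.2, 21.5, 18.8 and 23.2 FPKM in WT, against 11.1, 11.3, 14.8 and 12.4 FPKM in Dux KO. Every WT pool was above every Dux KO pool. The log2 fold change was -0.68 (95% interval -1.01 to -0.34, limma adjusted p = 0.00915). Its paralogue Smarcc2 was at 1.56 ± 0.191 FPKM in WT, against 0.988 ± 0.206 FPKM in Dux KO (SD, n = 4) and did not pass (log2 fold change -0.37, limma adjusted p = 0.0525). Among the other core subunits, Smarce1 had a log2 fold change of -0.42 (limma adjusted p = 0.0516, called by DESeq2 at adjusted p = 0.0279), Smarcb1 of -0.28, Smarcd2 of -0.04 and Smarcd1 of 0.04, none passing. Smarcd2, the most abundant Smarcd subunit here, was at 9.35 to 12.8 FPKM in WT, against 10.1 to 11.4 FPKM in Dux KO.

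**Figure D2:**
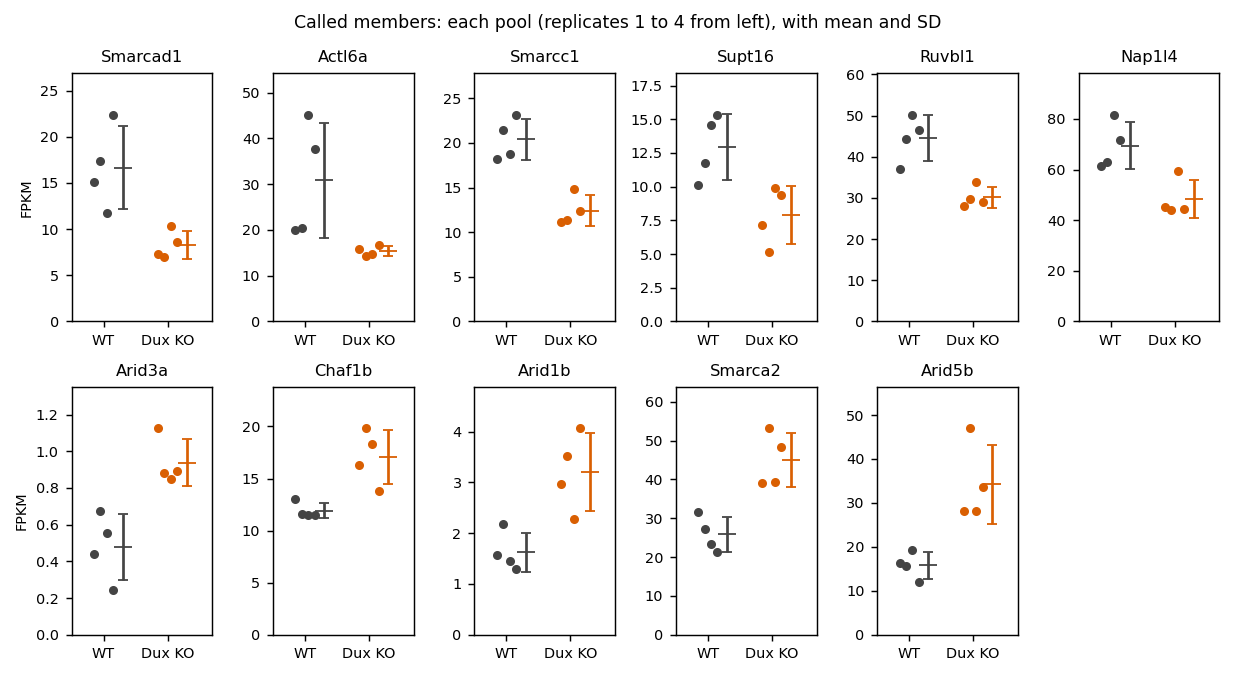
FPKM (y axis, from 0, one scale per gene) of the 11 called members in WT (grey) and Dux KO (orange) pools, replicates 1 to 4 from left, with the mean and SD of 4 pools beside the points. No gene shows overlap of the groups, and Actl6a shows WT replicates 3 and 4 at 45.2 and 37.6 FPKM above the other WT pools at 20.1 and 20.5 FPKM.

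Smarcad1 had the most negative log2 fold change of the members. It encodes a SNF2-type enzyme that helps to keep silent chromatin through replication, and it lies on chromosome 6 at 65042583 to 65116061 (GRCm38). Its level was 15.1, 17.3, 11.8 and 22.4 FPKM in WT, against 7.25, 7.0, 10.4 and 8.55 FPKM in Dux KO. WT replicate 3 and Dux KO replicate 3 came closest to each other. The log2 fold change was -0.90 (95% interval -1.35 to -0.46, limma adjusted p = 0.00885), and the call held in 19 of 20 alternatives, all but the one without Dux KO replicates 1 and 2. Smarcal1, an annealing helicase of stalled replication forks, was low, at 0.817 to 1.42 FPKM in WT, against 1.86, 2.32, 0.589 and 1.58 FPKM in Dux KO. Dux KO replicate 3 lay below all WT pools and the other 3 above them, and the difference did not pass (limma adjusted p = 0.247; without Dux KO replicate 3 a log2 fold change of 0.54 and adjusted p = 0.0353).

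No ISWI member was called by limma, which called 33.6% of all tested genes. All 6 log2 fold changes were below 0, from -0.36 to -0.03 with a median of -0.16. At an unadjusted p under 0.05 limma gave 1 of 6 lower, beside 24.8% of all tested genes. This was Baz1a, which DESeq2 also called (adjusted p = 0.0421), while edgeR called 0. Baz1a, the ACF1 partner of the motor, was at 28.5, 30.8, 31.8 and 30.5 FPKM in WT, against 21.5, 21.4, 24.8 and 26.1 FPKM in Dux KO. The groups did not overlap, and the adjusted p of limma was 0.0566. Smarca5, the SNF2H motor, was at 17.3 to 21.2 FPKM in WT, against 14.4, 12.3, 14.4 and 19.4 FPKM in Dux KO. It overlapped through Dux KO replicate 4 and did not pass (log2 fold change -0.35, limma adjusted p = 0.111), but did without that pool (log2 fold change -0.47, limma adjusted p = 0.0385). Bptf, the large subunit of NURF, was at 16.8 ± 1.63 and 15.2 ± 1.63 FPKM (SD, n = 4). Baz1b, Baz2a and Baz2b had log2 fold changes of -0.06, -0.18 and -0.03.

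CHD remodelers, named for their chromodomains, gave 0 calls of 6 tested, by limma, edgeR and DESeq2 alike and at an unadjusted p under 0.05 of limma. Of all tested genes limma called 33.6% after adjustment. Their median log2 fold change was -0.02. Chd1, which works with elongating polymerase, was the most abundant, at 18.7, 21.3, 20.6 and 28.2 FPKM in WT, against 16.1, 13.9, 19.6 and 21.5 FPKM in Dux KO (change of -0.31 on the log2 scale, 95% interval -0.71 to 0.09). Chd7 was at 5.73 to 9.15 FPKM in WT, against 5.98 to 9.66 FPKM in Dux KO. Chd8 had the most negative value of the family (-0.45, limma adjusted p = 0.132), with WT replicates 3 and 4 at 6.09 and 4.90 FPKM and the other 6 pools at 1.88 to 3.12 FPKM. Chd4, the NuRD motor, was level, at 3.11 ± 0.513 and 3.14 ± 0.920 FPKM (SD, n = 4; 95% interval of the log2 fold change -0.41 to 0.39). Chd6 and Chd9 had log2 fold changes of 0.03 and 0.06.

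Of 7 INO80 members, 1 fell (14.3%, beside 18.1% of all tested genes) and 6 did not pass. The median log2 fold change was -0.48, with 6 of 7 values below 0. At an unadjusted p under 0.05 limma gave 5 lower and 0 higher, beside 24.8% and 21.7% of all tested genes. Ruvbl1, one of a pair of RuvB-like ATPases that also assemble SRCAP, TIP60 and snoRNP complexes, was at 37.0, 44.3, 50.2 and 46.5 FPKM in WT, against 28.1, 29.6, 33.8 and 29.1 FPKM in Dux KO. The groups were apart, with WT replicate 1 nearest to Dux KO. It fell by 0.54 on the log2 scale (95% interval -0.86 to -0.22, limma adjusted p = 0.0172). The limma adjusted p was 0.053 without Dux KO replicate 1 and 0.0505 under quantile normalization. Its partner Ruvbl2 was at 21.3, 18.4, 32.4 and 36.0 FPKM in WT, against 18.8, 11.1, 19.4 and 21 FPKM in Dux KO. These groups overlapped and the difference did not pass (log2 fold change -0.58, limma adjusted p = 0.0899), but did without WT replicate 2 (log2 fold change -0.74, limma adjusted p = 0.0465).

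Ino80c, a small subunit and the most abundant of those specific to INO80, was at 47.4, 44.8, 56.6 and 44.3 FPKM in WT, against 41.0, 23.8, 43.4 and 34.3 FPKM in Dux KO. Dux KO replicate 3 was close to the lowest WT pool, and the difference did not pass (limma adjusted p = 0.0837). The motor Ino80 was at 6.24 ± 1.60 and 4.17 ± 1.33 FPKM (SD, n = 4; log2 fold change -0.50, limma adjusted p = 0.0974) and passed without Dux KO replicate 4 (log2 fold change -0.65, limma adjusted p = 0.0404). Ino80e and Ino80b had log2 fold changes of -0.48 and -0.37. Ino80e passed without Dux KO replicate 3 (log2 fold change -0.61, limma adjusted p = 0.0267) and by DESeq2 (adjusted p = 0.0457). Ino80d alone was above 0 (0.28, limma adjusted p = 0.195). The noncoding Ino80dos shares 431 exon bases with Ino80d and 489 with Ndufs1, both on the opposite strand. It was at 1.90 to 4.06 FPKM in WT, against 3.16 to 3.87 FPKM in Dux KO and did not pass.

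Chaperones of histones H3 and H4 gave 1 call of 7, a higher one (14.3%, beside 15.5% of all tested genes). Chaf1b, the p60 subunit of CAF-1, which loads new histones behind the replication fork, was at 13, 11.6, 11.5 and 11.5 FPKM in WT, against 16.3, 19.9, 18.3 and 13.8 FPKM in Dux KO. Dux KO replicate 4 was just above WT replicate 1, and the other Dux KO pools stood clear. It rose by 0.47 on the log2 scale (95% interval 0.14 to 0.81, limma adjusted p = 0.0342). The call ended, with log2 fold changes of 0.40 to 0.49 and adjusted p of 0.0653 to 0.0795, without any of WT replicates 2, 3 and 4 or Dux KO replicates 1, 2 and 3. The large CAF-1 subunit Chaf1a was far lower, at 1.5 to 2.13 FPKM in WT, against 1.07 to 1.58 FPKM in Dux KO, and did not pass (log2 fold change -0.21, limma adjusted p = 0.259). Of its exon bases 52.5% are shared with Ubxn6 on the opposite strand.

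Asf1b, a chaperone that passes H3 and H4 to CAF-1 and HIRA, was the second most abundant member. It stood at 215, 191, 266 and 201 FPKM in WT, against 192, 160, 172 and 160 FPKM in Dux KO, and 1.75% of the genes in the table were above its mean of 195 FPKM. The groups overlapped through Dux KO replicate 1, and the difference did not pass (log2 fold change -0.34, 95% interval -0.67 to -0.01, limma adjusted p = 0.0983). Its paralogue Asf1a was at 22.9 to 26.4 FPKM in WT, against 31.7, 34.3, 27.6 and 23.8 FPKM in Dux KO, also not passing (log2 fold change 0.21). Of its exon bases 48.0% are shared with Mcm9 on the opposite strand.

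The chaperones that place the replacement histone H3.3 did not pass. Hira, which serves genes and the paternal pronucleus, was at 2.21 ± 0.677 FPKM in WT, against 1.35 ± 0.237 FPKM in Dux KO (SD, n = 4; log2 fold change -0.44, limma adjusted p = 0.0743). It was called by DESeq2 (adjusted p = 0.0422) and, with a log2 fold change of -0.55, without WT replicate 3 (limma adjusted p = 0.0411). Daxx and Atrx, which act together at repeats and telomeres, had log2 fold changes of 0.05 and -0.02. Their 95% intervals were within -0.48 to 0.45.

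Chaperones of H2A and H2B gave 2 lower calls of 6 (33.3%, beside 18.1% of all tested genes). Supt16, the large subunit of FACT, which opens nucleosomes ahead of polymerases, was at 10.1, 11.8, 14.5 and 15.3 FPKM in WT, against 7.18, 5.14, 9.91 and 9.36 FPKM in Dux KO. WT replicate 1 and Dux KO replicate 3 all but touched. It fell by 0.67 on the log2 scale (95% interval -1.13 to -0.21, limma adjusted p = 0.0322). Without WT replicate 3 or 4, or Dux KO replicate 1 or 2, the call ended (log2 fold changes -0.50 to -0.64, limma adjusted p 0.0722 to 0.0888). Of its exon bases 21% are shared with Rpgrip1 on the opposite strand. The other FACT subunit, Ssrp1, was at 14.4 ± 1.10 and 12.5 ± 2.03 FPKM (SD, n = 4) and did not pass (log2 fold change -0.19).

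Nap1l4, of the nucleosome assembly protein family, was at 61.5, 63.1, 81.7 and 71.5 FPKM in WT, against 45.2, 43.9, 59.6 and 44.4 FPKM in Dux KO. Dux KO replicate 3 reached nearly to the lowest WT pool. It fell by 0.52 on the log2 scale (95% interval -0.86 to -0.17, limma adjusted p = 0.0274). The call ended without WT replicate 3 or 4 or Dux KO replicate 1, 2 or 4 (log2 fold changes -0.44 to -0.50, limma adjusted p 0.051 to 0.0734). Under quantile normalization it ended too (log2 fold change -0.31, limma adjusted p = 0.114). Its paralogue Nap1l1 was at 27.5 to 31.3 FPKM in WT, against 21.4, 21.9, 22.2 and 28.8 FPKM in Dux KO, where replicate 4 alone lay within the WT range. It did not pass (limma adjusted p = 0.113) but did without Dux KO replicate 4 (log2 fold change -0.41, limma adjusted p = 0.0471). Nap1l3, on the X chromosome, was at 0.563 ± 0.303 and 1.03 ± 0.377 FPKM (SD, n = 4), and passed as higher only without WT replicate 1 (log2 fold change 0.50, limma adjusted p = 0.0497).

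Npm2, the oocyte nucleoplasmin that takes part in remodeling sperm chromatin, was the most abundant member. Its level was 244, 225, 217 and 213 FPKM in WT, against 227, 252, 246 and 224 FPKM in Dux KO, with 1.37% of the genes in the table above its mean. The groups overlapped throughout, and the 95% interval of its log2 fold change of 0.08 was -0.21 to 0.36 (limma adjusted p = 0.666). It kept its side of the threshold in all 20 alternatives.

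The DNA-binding members gave 2 higher calls of 8 and 0 lower (25% and 0%, beside 15.5% and 18.1% of all tested genes). The lower count was 0 also by edgeR, by DESeq2 and at an unadjusted p under 0.05 of limma. Arid5b, which recruits a histone demethylase and lies on chromosome 10 at 68092520 to 68278740 (GRCm38), had the highest log2 fold change of all members. It was at 16.3, 15.6, 19.2 and 12.0 FPKM in WT, against 28.1, 47.1, 28.2 and 33.6 FPKM in Dux KO. Even the lowest Dux KO pool was well above the highest WT pool. The mean went from 15.8 ± 2.97 to 34.2 ± 8.94 FPKM (SD, n = 4), a change of 1.06 on the log2 scale (95% interval 0.62 to 1.49, limma adjusted p = 0.00461). It was the one called member that passed in all 20 alternatives.

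Arid3a, a factor of B cells and of the trophectoderm, was near the detection filter, at 18 to 52 recovered reads in WT and 69 to 91 in Dux KO. Its level was 0.439, 0.673, 0.552 and 0.246 FPKM in WT, against 1.13, 0.880, 0.849 and 0.890 FPKM in Dux KO, without overlap. The log2 fold change of 0.40 (limma adjusted p = 0.0327) is on the log2(FPKM + 1) scale, which understates changes of low genes. Its call ended without WT replicates 1 or 4 or Dux KO replicates 1 or 2 (log2 fold changes 0.39, 0.32, 0.35 and 0.41, limma adjusted p 0.0566 to 0.097). Under quantile normalization and under limma without trend and robust moderation it ended too (limma adjusted p = 0.0856 and 0.0523). Ctcf, the insulator protein that bounds chromatin loops, was at 38.1, 43.5, 48.1 and 46.0 FPKM in WT, against 38.2, 41.4, 36.6 and 47.5 FPKM in Dux KO. It did not pass (log2 fold change -0.10, 95% interval -0.42 to 0.21). Arid4a was at 14.0 to 20.9 and 16.5 to 22.5 FPKM, and Arid3b, Arid3c, Arid4b and Arid5a had log2 fold changes of 0.22, -0.16, -0.18 and -0.21. The pseudogene Smarca5-ps was at 1.72 to 2.66 FPKM in WT, against 1.05 to 2.00 FPKM in Dux KO and did not pass. Reads of its parent gene may be shared with it.

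**Figure D3:**
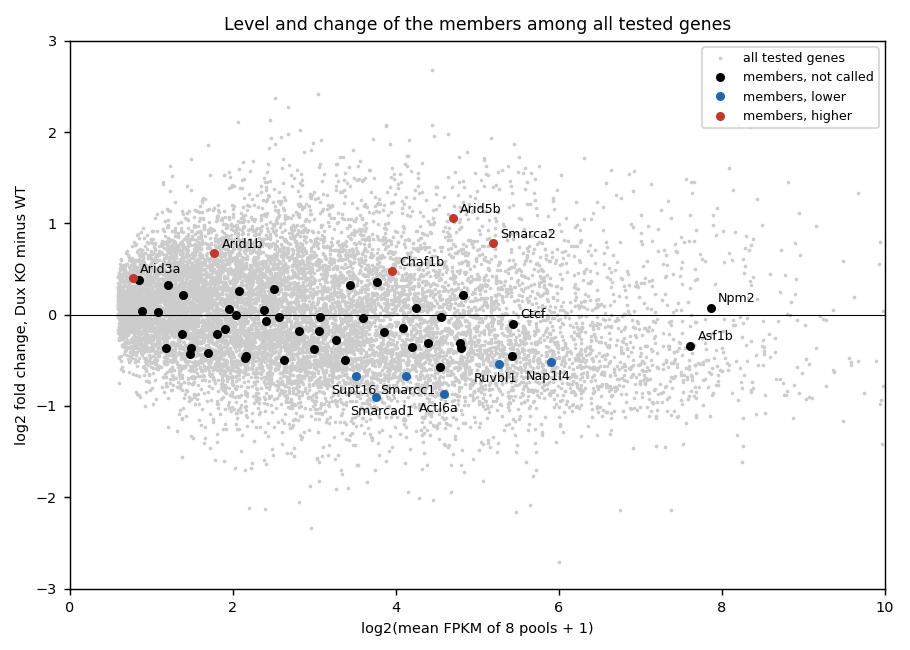
Log2(mean FPKM of 8 pools + 1) on the x axis and log2 fold change (Dux KO minus WT) on the y axis for all tested genes (grey, 28 of 12434 lying outside the axes) and the members (black not called, blue lower, red higher). The 2 most abundant members, Npm2 and Asf1b, lie at the right at 0.08 and -0.34, neither called, and Arid5b has the highest value at 1.06.

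Genes of the same complexes and chaperone pathways that the symbol rule leaves out were read from a list of 80, of which 79 were tested. Of these 6 rose, 13 fell and 60 did not pass (7.59% and 16.5%, beside 15.5% and 18.1% of all tested genes), with a median log2 fold change of -0.19. Without WT replicate 4 they were 3 higher and 6 lower, without WT replicate 3 they were 5 and 8 (12.7% and 14.3% of all genes), and without Dux KO replicate 1 they were 5 and 7. Without Dux KO replicates 1 and 2 together they were 2 and 0.

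Of the lower genes, Actr6, an actin-related subunit of SRCAP, the remodeler that deposits H2A.Z, changed most. It was at 125, 90.4, 118 and 129 FPKM in WT, against 59.8, 33.4, 72.5 and 71.2 FPKM in Dux KO (change of -1.0 on the log2 scale, limma adjusted p = 0.0106). Nasp, a carrier of soluble H3 and H4, was at 81.2, 86.7, 71.2 and 100.2 FPKM in WT, against 36.6, 35.4, 55.3 and 50.03 FPKM in Dux KO (change of -0.94 on the log2 scale, limma adjusted p = 0.00519). Both were apart in every pool. Cdk2ap1, a NuRD subunit, fell from 69.3 ± 3.66 to 41.0 ± 9.58 FPKM (SD, n = 4; log2 fold change -0.77), and Meaf6, of acetyltransferase complexes, from 24.4 ± 3.60 to 14.5 ± 4.03 FPKM (-0.74), with Dux KO replicate 3 inside the WT range. The other 9 that fell were Mta2, Hdac1 and Mta3 of NuRD, Dpf2 of SWI/SNF, the chaperones Npm1, Anp32e, Set and Supt6, and Btaf1, with log2 fold changes of -0.73 to -0.51.

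Of the higher genes, Mbd2, a reader of methylated DNA in NuRD, was at 1.75, 1.5, 2.53 and 1.54 FPKM in WT, against 3.45, 5.98, 3.82 and 4.42 FPKM in Dux KO (change of 0.93 on the log2 scale, limma adjusted p = 0.00608). Anp32a, an acidic nuclear protein, rose from 0.533 ± 0.132 to 1.57 ± 0.326 FPKM (SD, n = 4; log2 fold change 0.74). Ss18l1 and Bcl7c, both of SWI/SNF, rose by 0.70 and 0.67 on the log2 scale, and Pole3 and Ing3 by 0.59 and 0.51. Within NuRD, Mbd2 thus rose while Cdk2ap1, Mta2, Mta3 and Hdac1 fell and Chd4, Hdac2, Rbbp4, Rbbp7, Mbd3, Gatad2a and Gatad2b did not pass.

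Members that stand in for each other, or that form a pair, were compared by their ratio within each pool, the difference of log2(FPKM + 1). Of 17 such pairs, 13 had both genes tested, and none passed the exact permutation test over the pools after adjustment over the 13 (two-sided, smallest p possible 0.0286; smallest adjusted p 0.0929). At least 8 pairs would have had to reach the smallest p for any to pass. In 4 pairs the groups did not overlap, each at the smallest possible p. The log2 ratio of Smarca4 to Smarca2 was -1.75, -1.63, -0.76 and -0.52 in WT and -2.56, -2.93, -2.29 and -2.0 in Dux KO, a difference of means of -1.28. WT replicates 3 and 4 lay apart from WT replicates 1 and 2 by more than the gap between the groups.

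The log2 ratio of Chaf1a to Chaf1b was -2.39, -2.13, -2.0 and -2.32 in WT and -2.75, -3.09, -2.92 and -2.84 in Dux KO, a difference of means of -0.69. For Asf1a to Asf1b it was -2.98, -3.0, -3.34 and -2.93 in WT and -2.56, -2.19, -2.60 and -2.69 in Dux KO, a difference of 0.55. For Chd7 to Chd8 the difference was 0.43. In the other 9 pairs the groups overlapped. For Ruvbl1 to Ruvbl2 the difference was 0.04, although 1 of the genes was called and the other was not, and for Supt16 to Ssrp1 it was -0.47 (exact permutation p = 0.0571, two-sided, adjusted p = 0.124).

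**Figure D4:**
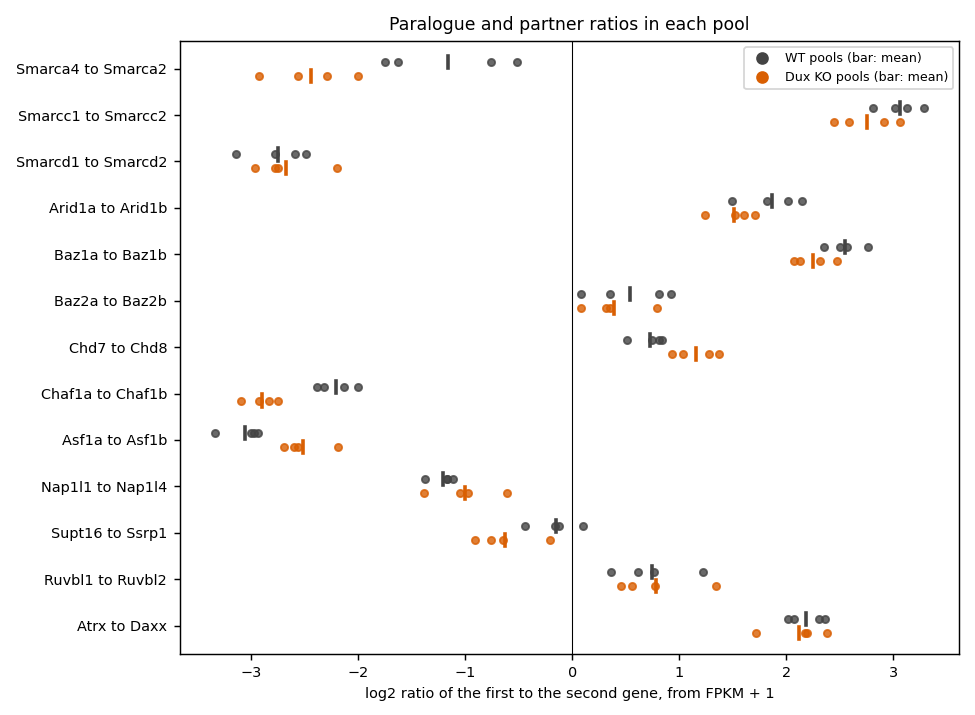
Log2 ratio of FPKM + 1 (x axis) of the first to the second gene of the 13 tested pairs, in WT (grey) and Dux KO (orange) pools, with bars at the means. For Smarca4 to Smarca2 the WT pools spread from -1.75 to -0.52 and the Dux KO pools from -2.93 to -2.0.

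The members varied within the groups as well as between them. In WT, 24 of 56 members (42.9%) had both replicates 3 and 4 above both replicates 1 and 2, beside 26.3% of all tested genes, and 11 (19.6%) had them below, beside 23.2%. Actl6a, Smarca4, Ruvbl2 and Chd8 were among the 24 and Smarca2 among the 11. This split was noticed in the values and is given with no test. The median deviation of the members from their group mean was 0.08 and 0.05 on the log2 scale in WT replicates 3 and 4, and -0.07 and -0.06 in WT replicates 1 and 2. It was 0.07 in Dux KO replicate 4 and -0.07 to -0.02 in the other Dux KO pools, while over all tested genes it was within -0.02 to 0.02 in every pool.

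**Figure D5:**
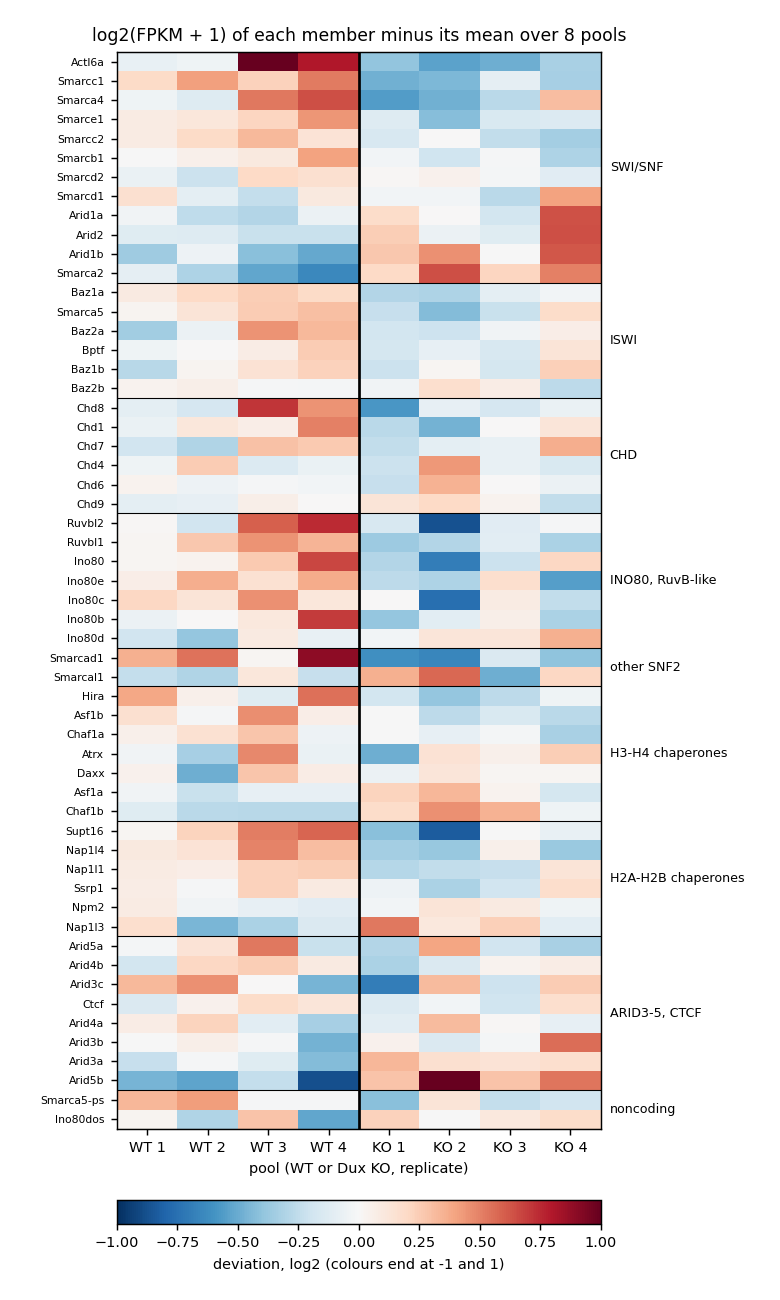
Log2(FPKM + 1) of each of the 56 tested members (rows, by role) minus its mean over 8 pools, in WT and Dux KO pools (columns), red above and blue below that mean. Actl6a, Smarca4, Chd8 and Ruvbl2 are redder in WT 3 and WT 4 than in WT 1 and WT 2, and Arid1a, Arid1b and Arid2 are reddest in KO 4.

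The members had long transcripts. The median length of merged exons was 6726.5 bases for the 56 tested members and 3780 bases for all tested genes with an annotation. It was 10060 bases for the 5 higher and 4462.5 bases for the 6 lower members, while for all tested genes it was 3303 bases for higher and 3354 bases for lower ones. Across the 56 members the Spearman correlation of length and log2 fold change was 0.216, given as a description, since the values share libraries and long genes of a family share sequence. Across all tested genes it was 0.015.

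Start sites were found in RefSeq (GRCm38.p6) for 44 of the 58 members, with 54 windows of 250 bases before a start. These windows were rich in CG pairs, with a median of 21 beside 6 in all 32851 windows, and in G and C (64.6 and 52.4%). The 32851 windows belong to 27025 genes, whether or not these were tested here. The shares below are therefore not set against tested genes alone. Searched on both strands, the GC box GGGCGG was in 70.4% of member windows and 32.7% of all windows, CCAAT in 35.2 and 33.9%, TATAAA in 7.41 and 12.4%, and CACGTG in 7.41 and 6.02%. The core of the DUX motif, searched as GATTNAATC, was in 0 of the 54 and in 0.247% of all windows, so its absence says only that these letters are not in these windows. The windows of the 2 lower and the 2 higher members of largest change with an entry are printed to show how unlike they are, 5′ to 3′ on the strand of the gene, with matches to the 5 motifs in capitals. Smarcad1 is at chr6:65042341-65042590 (plus strand, 43.2% G and C), Actl6a at chr3:32708296-32708545 (plus strand, 64.8%), Arid5b at chr10:68278727-68278976 (minus strand, 42.0%) and Smarca2 at chr19:26604910-26605159 (plus strand, 68.4%). The Actl6a start lies 2248 bases inside the gene as GENCODE M21 draws it.
Smarcad1: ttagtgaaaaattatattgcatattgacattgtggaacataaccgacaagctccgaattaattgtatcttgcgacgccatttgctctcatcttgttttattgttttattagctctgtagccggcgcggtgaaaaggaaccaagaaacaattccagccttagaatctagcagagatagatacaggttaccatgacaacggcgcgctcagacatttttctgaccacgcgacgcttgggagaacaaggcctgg
Actl6a: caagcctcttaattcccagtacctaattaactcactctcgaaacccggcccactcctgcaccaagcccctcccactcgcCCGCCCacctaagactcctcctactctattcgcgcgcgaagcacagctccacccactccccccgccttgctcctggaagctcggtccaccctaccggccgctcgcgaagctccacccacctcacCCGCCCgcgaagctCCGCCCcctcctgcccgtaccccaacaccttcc
Arid5b: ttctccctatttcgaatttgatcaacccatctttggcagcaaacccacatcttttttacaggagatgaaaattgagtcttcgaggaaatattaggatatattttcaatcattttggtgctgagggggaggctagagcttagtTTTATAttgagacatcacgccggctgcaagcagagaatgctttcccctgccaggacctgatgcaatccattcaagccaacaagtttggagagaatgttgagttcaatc
Smarca2: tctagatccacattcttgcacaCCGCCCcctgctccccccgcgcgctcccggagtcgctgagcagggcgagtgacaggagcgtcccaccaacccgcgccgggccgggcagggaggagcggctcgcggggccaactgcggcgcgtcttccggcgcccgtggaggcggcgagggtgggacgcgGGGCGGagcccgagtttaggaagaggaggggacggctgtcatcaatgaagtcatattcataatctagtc
In these windows Smarcad1, which fell, held none of the 5 motifs and Actl6a, which also fell, held 3 GC boxes. Of the members that rose, Arid5b held 1 TATA box on the opposite strand and Smarca2 held 2 GC boxes. Neither these 2 lower nor these 2 higher members shared a motif.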

How the data were processed

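RNA-seq libraries from 8 pools, 4 per group, were grouped and numbered from the sample labels. The gene levels are FPKM made by the authors, per the file headers. The deposited tables also hold a mean count signal and, from the authors' own comparison, log2 fold changes and adjusted p-values, and the repeat table holds FPM signal. Per the submitters' processing notes, the tools were Trimmomatic 0.32, STAR 2.6.1a and SAMtools 1.7, on GRCm38 (mm10). The sources used here do not give the counter, annotation, strand setting, handling of reads with several positions or the authors' test.

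Members and lists were chosen with earlier results of these data known. Levels were tested with limma 3.58.1 (R 4.3.3; variance trend, robust moderation) on log2(FPKM + 1), over the 12434 genes averaging 0.5 FPKM or more, with no covariate and an adjusted p under 0.05. Scaling FPKM by the deposited mean count gave whole multiples of 1 step per library (100% of values within 0.05). These recovered reads went to edgeR 4.0.16 and DESeq2 1.42.0 as alternatives. The repeat table served only to compare its steps with those of genes (ratios of 2.60 to 2.63). No column was left unmapped to a sample (0). All tests are two-sided, and each tool was tested on simulated counts.

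Per-pool values are given for up to 4 members called in each direction per role, the 2 most abundant not called, and up to 4 called genes in each direction of the pathway list. Other members were named to account for all 58. Alternatives were a pseudocount of 0.1, no filter or a mean of at least 5 FPKM, 2 other scalings, the replicate block, plain limma, the deposited p-values and leaving out pools. Coordinates and exons are from GENCODE M21 (GRCm38), which held all 58 members.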

Additional observations from a re-analysis of the deposited data

Results flagged for a closer look

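In groups of 4 pools, a pool was singled out when its gap to the nearest of the others divided by the whole range of the group passed Dixon's 95% critical value. Of 128 groups of values examined 9 did, where chance gives about 1 in 20.

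Smarce1 stood at 1.38 FPKM in Dux KO replicate 2, below the other 3 pools at 1.88 to 1.93 FPKM. Arid3a stood at 1.13 FPKM in Dux KO replicate 1, above the other 3 pools at 0.849 to 0.890 FPKM. Arid3b stood at 0.847 FPKM in WT replicate 4, below the other 3 pools at 1.54 to 1.67 FPKM. Arid5a stood at 3.47 FPKM in Dux KO replicate 2, above the other 3 pools at 1.72 to 1.99 FPKM. Nap1l1 stood at 28.8 FPKM in Dux KO replicate 4, above the other 3 pools at 21.4 to 22.2 FPKM. Nap1l4 stood at 59.6 FPKM in Dux KO replicate 3, above the other 3 pools at 43.9 to 45.2 FPKM. Chaf1b stood at 13 FPKM in WT replicate 1, above the other 3 pools at 11.5 to 11.6 FPKM. Smarcal1 stood at 1.42 FPKM in WT replicate 3, above the other 3 pools at 0.817 to 0.902 FPKM. Cdk2ap1 stood at 74.8 FPKM in WT replicate 4, above the other 3 pools at 66.9 to 68.1 FPKM. Of these genes, Arid3a, Nap1l4, Chaf1b and Cdk2ap1 were called between the groups. No pool held more than 2 of the 9 values. The cause was not tested.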

How the results depend on the processing

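The 5 higher and 6 lower members became 1 and 0 without Dux KO replicates 1 and 2 together, and 10 lower with the deposited p-values and by DESeq2. Among genes averaging 5 FPKM or more 3 were higher, since that filter itself removes Arid1b and Arid3a (means of 2.42 and 0.707 FPKM). Leaving out 1 pool at a time gave 3 to 5 higher and 3 to 10 lower members. The 6 higher and 13 lower pathway genes became 2 and 0 without Dux KO replicates 1 and 2, and 10 higher by DESeq2, with 3 to 7 higher and 6 to 15 lower without single pools. The pair ratios gave 0 passing in each alternative (leave-one-out 0 to 0), but at least 8 of the 13 pairs would have to reach the smallest exact p at once, so these zeros say nothing about stability. No member that was called in the main test or in an alternative changed direction between them. Median-of-ratios scaling called the same 11 members, and quantile normalization 8 of the 11. The latter lost Arid3a, Nap1l4 and Ruvbl1 (limma adjusted p = 0.0856, 0.114 and 0.0505) and added Smarcc2, Smarce1, Hira and Ino80e, all lower. These scalings moved the median of all genes from -0.02 to -0.01 and -0.03.

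Replicate numbers are shared by the groups, but same-numbered pools deviated together in only 2 of 4 cases (correlations of deviations -0.12, 0.33, -0.06 and 0.30), so the numbers were not taken as pairs. With the replicate block 5 members were higher and 10 lower, beside 17.2% and 20.8% of all genes. Ruvbl2, Smarca4, Ino80 and Ino80c were added (limma adjusted p = 0.0184, 0.0323, 0.0361 and 0.041), and the pathway genes were 7 and 16. Within blocks the smallest exact p is 0.125, so no pair ratio could pass (0). Not every pool correlated best with its own number. Calls of genes under 1 FPKM, such as Arid3a, rest on few reads.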
